A study of Mus musculus with 36 samples.

Results

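The genes described here are 9 products of mature oligodendrocytes and their myelin: Opalin, Pllp, Ugt8a, Cnp, Qdpr, Cryab, Mbp, Mobp and Mog. They were chosen by gene symbol from 12580 genes counted in steady-state libraries and from 12403 genes counted in Lyve1 libraries. The choice was made with earlier results of these data known. The shares of all genes set beside the counts of the 9 are therefore a description, not an independent test. All 9 were listed in both tables, and all 9 passed the filter on low counts, which left 9619 and 9680 genes to be tested.

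Oligodendrocytes wrap axons of the brain in myelin, a stack of lipid-rich membrane held together by a small set of abundant proteins. Mbp, the main cytosolic protein of compact myelin, and Mobp, another basic protein of myelin, are encoded by mRNAs that are carried into the cell's processes and translated at the membrane. Pllp (plasmolipin), Opalin and Mog are membrane proteins, Cnp is a phosphodiesterase of the non-compacted myelin, and Ugt8a makes galactosylceramide, the characteristic myelin lipid. Qdpr recycles the cofactor tetrahydrobiopterin, and Cryab is a small heat shock protein that astrocytes also make.

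The RNA came from mouse hemibrains whose ribosomes carried an HA tag (Rpl22-HA, Ribo-tag) only in cells that assembled an active Cre recombinase from 2 fragments, and it was counted from the 3′ end of transcripts (MARS-seq). Lyve1 mice had the genotype CX3CR1-CCre+/-:Lyve1-NCre+/-:Ribo-tag+/-, which is meant to tag macrophages of the brain's borders. They gave 4 HA and 4 IgG precipitates 12 h after 2.5 mg/kg lipopolysaccharide (LPS), and 6 HA and 6 IgG precipitates at steady state. Sall1 mice, CX3CR1-CCre+/-:Sall1-NCre+/-:Ribo-tag+/-, which tag microglia, gave 6 HA and 6 IgG precipitates at steady state. All groups thus shared heterozygous split-Cre and Ribo-tag alleles, and no group was meant to carry the tag in oligodendrocytes. The age of the mice is not given in the sources used here, and nothing in the labels says which precipitates came from the same brain, so p-values measure the spread between libraries, which may be technical.

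Libraries held 362063 to 1696679 counts, the fewest in an IgG library after LPS. The 9 genes made up 0.327% to 0.663% of a library. Markers of the tagged cells were enriched by HA. In Sall1 mice 13 of 14 tested microglial markers passed as higher in HA than in IgG, beside 463 of all 9619 tested genes. In Lyve1 mice 3 of 4 tested border macrophage markers did, of 10 listed, beside 11.7% of all tested genes. Enrichment in Lyve1 HA was not limited to them, since 7 of 14 microglial and 4 of 8 fibroblast markers passed as higher too. All 8 LPS libraries held counts of the Y-linked genes Ddx3y and Eif2s3y, 15 to 60 per library, whereas the 12 Lyve1 libraries at steady state held 0 to 4. LPS and the presence of Y-linked RNA therefore cannot be told apart within the Lyve1 libraries. Among the Sall1 libraries 4 of 6 HA and 4 of 6 IgG libraries reached 10 such counts, and those values are given with the LPS results. In whole-tissue precipitates, fewer oligodendrocytes and less RNA per oligodendrocyte cannot be told apart.

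The first question was whether the 9 genes differed after LPS in HA precipitates of Lyve1 mice. Of the 9, 7 passed as lower after LPS and 0 as higher, against 8% of all tested genes lower and 9.46% higher (edgeR quasi-likelihood test, Benjamini-Hochberg adjusted p under 0.05 over all genes). The largest ratios were those of Ugt8a, Opalin, Pllp and Qdpr, which were 4.95, 3.97, 3.95 and 2.72 times lower. That of Ugt8a rests on only 1 to 6 counts per LPS library. Cryab, Cnp and Mog were 1.63, 1.47 and 1.43 times lower, while Mobp and Mbp did not pass. The median log2 ratio of the 9 genes was -0.70, beside -0.02 for all tested genes. Levels are given as CPM, the count scaled to a common, TMM-normalised library size, and differences as log2 ratios ± SE, LPS over steady state, with 4 LPS and 6 steady-state libraries.

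Among the membrane proteins, Opalin, a sialylated glycoprotein of oligodendrocytes, was at 17.4, 11.5, 8.78 and 12.2 CPM in the 4 LPS HA libraries. At steady state the 6 HA libraries ran from 32.9 to 67.5 CPM with a median of 47.0. Every LPS library lay below every steady-state library, and the log2 ratio was -1.99 ± 0.26 (adjusted p = 4.75e-07). Pllp, a proteolipid that spans the myelin membrane, was at 29.0, 23.9, 40.2 and 30.4 CPM after LPS, against 97.4 to 150.0 CPM with a median of 119.9 at steady state. The groups again did not overlap, with a log2 ratio of -1.98 ± 0.19 (adjusted p = 5.52e-10). Mog, an immunoglobulin-like protein of the outer myelin surface, was at 44.7, 68.1, 36.6 and 68.5 CPM after LPS and ran from 63.4 to 86.1 CPM, median 78.1, at steady state. Here the groups overlapped, since LPS libraries 1-2 and 2-2 lay within the steady-state range. The log2 ratio of Mog, -0.51 ± 0.18, passed narrowly (adjusted p = 0.0494), and the adjusted p ran from 0.0184 to 0.492 over the alternative settings.

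Of the enzymes, Qdpr was at 205.4, 157.4, 144.8 and 158.2 CPM after LPS. At steady state it ran from 389.2 to 509.0 CPM with a median of 460.4. No LPS library came near the steady-state range, and the log2 ratio was -1.44 ± 0.13 (adjusted p = 3.72e-10). Cnp was at 322.2, 406.7, 300.7 and 415.4 CPM after LPS, against 437.8 to 576.9 CPM, median 542.3, at steady state. Its groups did not overlap but lay close, with a log2 ratio of -0.56 ± 0.12 (adjusted p = 0.00144). Ugt8a was a rare transcript, with 6, 1, 4 and 2 counts in the LPS libraries (0.884 to 4.97 CPM) against 10 to 19 counts (8.74 to 31.7 CPM) at steady state. The groups did not overlap, and the log2 ratio was -2.31 ± 0.50 (adjusted p = 0.00134). The LPS counts lay under the minimum of 10 counts used by the filter, so Ugt8a passed that filter through its other groups, and its ratio rests on few molecules.

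Cryab was at 140.8, 145.0, 117.0 and 127.8 CPM after LPS, against 189.6 to 233.8 CPM with a median of 218.5 at steady state. The groups did not overlap, with a log2 ratio of -0.70 ± 0.13 (adjusted p = 2.5e-04). In total 6 of the 9 genes, Ugt8a with its few counts among them, had LPS libraries wholly below the steady-state libraries, beside 4.33% of all tested genes.

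The 2 basic proteins behaved otherwise. Mbp was at 3281, 2937, 3139 and 2366 CPM after LPS. At steady state it ran from 2369 to 4945 CPM with a median of 2615, and libraries 2-1 and 2-2, at 4591 and 4945 CPM, stood well above the other 4, which lay between 2369 and 2668 CPM. LPS library 2-2 lay just below this range and the other 3 inside it, and the log2 ratio was -0.15 ± 0.24 (adjusted p = 0.706, 95% interval -0.61 to 0.31). Mobp was at 215.3, 221.9, 188.0 and 219.1 CPM after LPS, against 213.3 to 336.8 CPM, median 274.6, at steady state. Its log2 ratio of -0.38 ± 0.14 just missed the threshold (adjusted p = 0.0529, 95% interval -0.66 to -0.11).

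**Figure D1:**
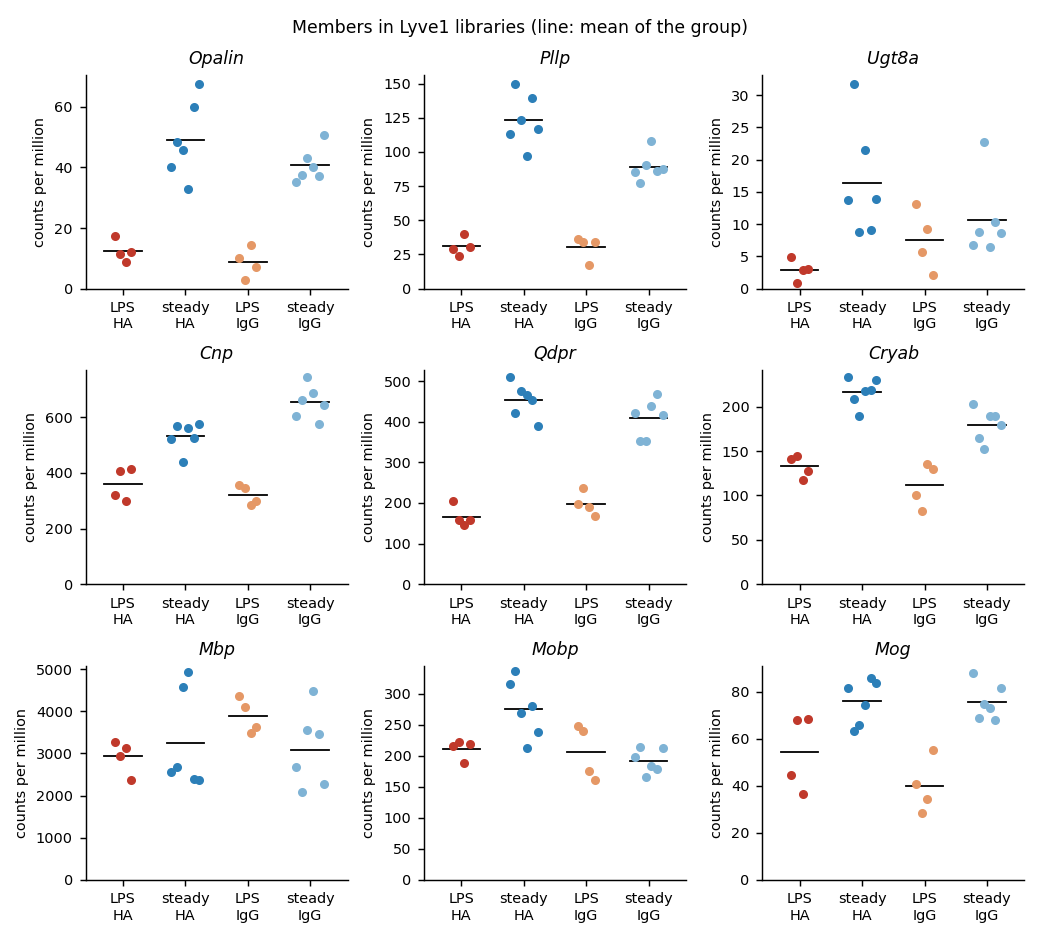
CPM of each gene in Lyve1 libraries, 1 point per library, for LPS HA, steady-state HA, LPS IgG and steady-state IgG, with a line at each group's mean. Opalin, Pllp, Cnp, Qdpr and Cryab show no overlap between LPS and steady state in either precipitate, while the Mbp and Mobp groups overlap in both.

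The same comparison in IgG precipitates, which hold background RNA of the hemibrain rather than tagged ribosomes, gave 6 of 9 genes lower after LPS and 0 higher, against 6.44% of all tested genes lower and 6.92% higher. Opalin, Pllp, Qdpr, Cnp, Mog and Cryab were the 6, and each had LPS libraries wholly below the steady-state libraries, as did 6.93% of all tested genes. The median log2 ratio of the 9 genes was -0.88, beside 0.01 for all tested genes. Opalin was at 10.2, 2.86, 14.5 and 7.30 CPM in LPS IgG libraries, the second value resting on 1 count, against 35.3 to 50.8 CPM with a median of 38.9 at steady state. It was 4.30 times lower, a log2 ratio of -2.10 ± 0.30 (adjusted p = 3.33e-06). Pllp was at 36.5, 34.3, 17.1 and 34.4 CPM after LPS, against 77.6 to 107.8 CPM, median 87.0, at steady state, a log2 ratio of -1.56 ± 0.20 (adjusted p = 6.55e-07). For both genes the groups lay apart in IgG as they did in HA.

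Qdpr was at 196.9, 237.4, 189.6 and 167.9 CPM in LPS IgG libraries, against 352.8 to 468.2 CPM, median 419.9, at steady state, and was 2.09 times lower (log2 ratio -1.06 ± 0.13, adjusted p = 3.91e-07). Cnp was at 357.3, 346.1, 283.0 and 299.2 CPM after LPS, against 576.6 to 746.4 CPM, median 653.4, at steady state. It was 2.04 times lower, a log2 ratio of -1.03 ± 0.13 (adjusted p = 2.53e-07). Mog and Cryab had log2 ratios of -0.88 ± 0.20 (adjusted p = 0.00222) and -0.65 ± 0.14 (adjusted p = 0.00114). Mog ran from 28.6 to 55.3 CPM after LPS against 68.0 to 88.2 CPM at steady state, and Cryab from 83.0 to 135.6 CPM against 152.0 to 203.5 CPM.

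Ugt8a, Mbp and Mobp did not pass in IgG. Ugt8a was at 13.1, 5.72, 9.21 and 2.09 CPM after LPS, inside or below a steady-state range of 6.44 to 22.7 CPM, with a log2 ratio of -0.45 ± 0.49 (adjusted p = 0.612). Mbp ran from 3476 to 4358 CPM after LPS against 2090 to 4484 CPM at steady state (log2 ratio 0.33 ± 0.23, adjusted p = 0.396). Mobp ran from 160.6 to 247.9 CPM against 165.6 to 213.7 CPM (log2 ratio 0.08 ± 0.14, adjusted p = 0.771).

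**Figure D2:**
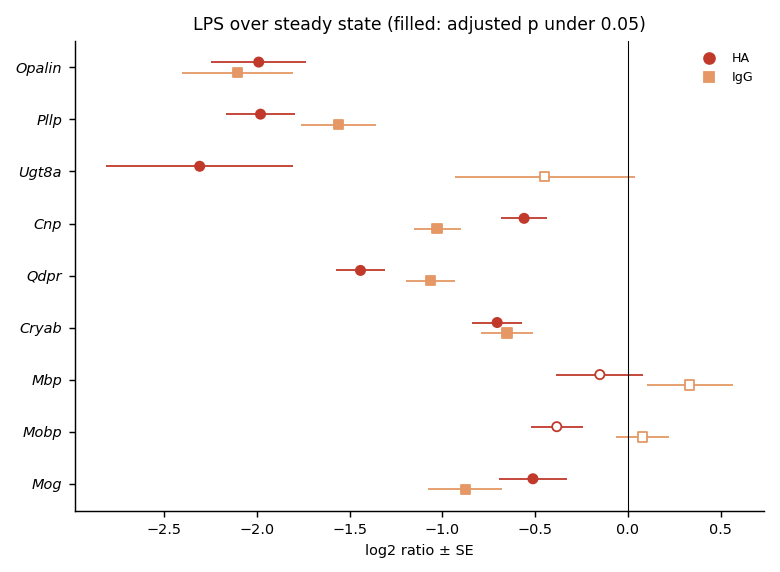
Log2 ratio of LPS over steady state for each gene in Lyve1 HA (circles) and Lyve1 IgG (squares) precipitates, with bars of 1 SE and filled symbols where the adjusted p was under 0.05. Opalin lies near -2 in both precipitates, Mbp and Mobp are the only genes unfilled in both, and Ugt8a shows the widest bars.

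Whether the LPS difference itself differed between HA and IgG was tested as an interaction. None of the 9 genes passed (edgeR, 0 of 9, with 4 at an unadjusted p under 0.05, and 0 by DESeq2 and by limma-voom), beside 3.23% of all tested genes. Of all 9680 tested genes, 2001 had an unadjusted p under 0.05. Ugt8a had the largest estimate, a log2 difference of -1.86 ± 0.73 (adjusted p = 0.139, 95% interval -3.30 to -0.42). Cnp, whose ratio was larger in IgG, had 0.47 ± 0.17 (adjusted p = 0.119). The 95% interval of that log2 difference was -0.68 to 0.91 for Opalin and -0.97 to 0.12 for Pllp.

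Since Mbp was the most counted of the 9 genes, each other gene was also expressed as a ratio to Mbp within its library, an alternative added after the data were seen that does not depend on the normalisation of library size. With an exact two-sided permutation test over 4 LPS and 6 steady-state libraries, the smallest possible p is 0.00476, and 16 ratios were tested. By this exact permutation test, the difference in log2 ratio to Mbp in HA precipitates, LPS minus steady state, was -1.85 for Opalin, -1.90 for Pllp, -1.36 for Qdpr (adjusted p = 0.0152 each) and -2.22 for Ugt8a (adjusted p = 0.0127). The value of Ugt8a rests on 1 to 6 counts per LPS HA library and was calculated with a pseudocount of 0.5. Cnp, Cryab, Mog and Mobp did not pass on this scale in HA, with adjusted p from 0.153 to 0.433. In IgG precipitates Opalin at -2.62, Pllp at -1.95, Cnp at -1.40, Qdpr at -1.43, Mog at -1.32 (adjusted p = 0.0127 each) and Cryab at -1.07 (adjusted p = 0.0152) passed by the exact permutation test. Mobp relative to Mbp differed by -0.28 in HA (adjusted p = 0.433) and -0.30 in IgG (adjusted p = 0.361) and did not pass the permutation test. The levels of these transcripts relative to Mbp in the same library were thus lower for Opalin, Pllp and Qdpr in both precipitates. Such ratios also carry the difference and spread of Mbp itself, whose log2 ratio after LPS was -0.15 ± 0.24 in HA and 0.33 ± 0.23 in IgG.

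The Y-linked counts were set beside these results in a fit of all 32 libraries, added after the data were seen, in which a term for Y-linked counts was estimated within the Sall1 libraries and applied to the Lyve1 libraries. In that fit the Y-linked term itself was negative and passed for Mog (log2 ratio -0.76 ± 0.16, adjusted p = 0.00176), Pllp (-0.56 ± 0.14, adjusted p = 0.00621) and Cnp (-0.42 ± 0.11, adjusted p = 0.00783). It passed in 1683 of all 10168 tested genes. The term did not pass for Qdpr (0.15 ± 0.12), Cryab (-0.07 ± 0.12) or Opalin (-0.36 ± 0.19). Nor did it pass for Ugt8a (1.04 ± 0.43, adjusted p = 0.0893), Mobp (-0.33 ± 0.14, adjusted p = 0.0858) or Mbp (0.33 ± 0.18). With the term, the LPS ratio in HA was -1.63 ± 0.32 for Opalin (adjusted p = 0.000332), -1.42 ± 0.23 for Pllp (adjusted p = 2.21e-05) and -1.59 ± 0.18 for Qdpr (adjusted p = 3.5e-08). Ugt8a and Cryab also passed as lower, at -3.35 ± 0.70 and -0.63 ± 0.18. The ratio of Ugt8a was -2.32 ± 0.59 without the term and rests on 1 to 6 counts per LPS HA library. Of all 10168 tested genes, 1337 passed as lower and 1238 as higher in HA with the term. Cnp (-0.14 ± 0.16, adjusted p = 0.557) and Mog (0.25 ± 0.25, adjusted p = 0.492) no longer passed in HA, and the sign of Mog turned. In the fit of all libraries without the term, Cnp passed in HA and Mog did not (adjusted p = 0.144).

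In IgG precipitates with the same term, Opalin (-1.75 ± 0.36), Pllp (-1.003 ± 0.24), Qdpr (-1.22 ± 0.19), Cnp (-0.62 ± 0.16) and Cryab (-0.58 ± 0.19) passed as lower, with adjusted p from 1.35e-05 to 0.0373. Of all 10168 tested genes, 503 passed as lower and 576 as higher there. Mog did not pass (-0.12 ± 0.26, adjusted p = 0.814). The term takes the Sall1 libraries with the first numbers 1 and 2 against those with the first number 3, so it also carries any other difference between those libraries.

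On the scale of that fit, Mog was at 36.3 to 67.8 CPM in LPS HA libraries of Lyve1 mice, against 41.0 to 65.0 CPM in the 4 untreated Sall1 HA libraries with Y-linked counts and 83.4 and 115.7 CPM in the 2 without. The range of Mog after LPS overlapped that of the 4 and passed it at both ends. Opalin was at 8.70 to 17.2 CPM in LPS HA libraries, against 30.7 to 44.5 CPM in the 4 Sall1 HA libraries with Y-linked counts. Qdpr was at 143.6 to 203.5 CPM against 294.5 to 399.2 CPM in the same libraries, and Pllp at 23.7 to 39.9 CPM against 85.6 to 108.7 CPM. For these 3 genes the LPS libraries lay below the Sall1 libraries with Y-linked counts in IgG as well. These are libraries of another mouse line, and the values are a description.

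**Figure D3:**
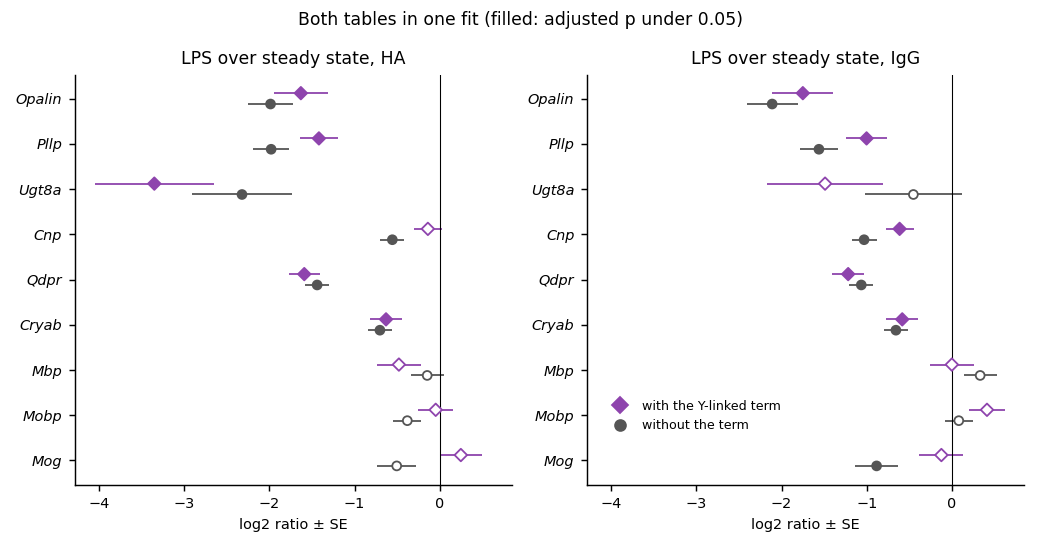
Log2 ratio of LPS over steady state for each gene when all 32 libraries are fitted together, with a term for Y-linked counts (diamonds) and without it (circles), in HA on the left and IgG on the right, with bars of 1 SE and filled symbols where the adjusted p was under 0.05. Opalin, Pllp, Qdpr and Cryab stay filled under both fits in both panels, whereas Mog is unfilled with the term in both and Cnp is unfilled with it in HA.

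The sequence around the start of 4 of these genes is shown because Opalin, Pllp and Qdpr passed as lower in both precipitates while Mobp did not pass in either. Each is 300 bases of RefSeq sequence, build GRCm38.p6, from 250 bases before to 50 after the gene's start, given 5′ to 3′ on the gene's strand. Sequence was used for 7 of the 9 genes. The windows are Opalin at chr19:41077064-41077363 (minus strand), Pllp at chr8:94696193-94696492 (minus strand), Qdpr at chr5:45450180-45450479 (minus strand) and Mobp at chr9:120149492-120149791 (plus strand). Capitals mark matches, on either strand, to any of 4 motifs that are spelled out after the sequences, and in the 4 windows shown no matches overlap.
Opalin: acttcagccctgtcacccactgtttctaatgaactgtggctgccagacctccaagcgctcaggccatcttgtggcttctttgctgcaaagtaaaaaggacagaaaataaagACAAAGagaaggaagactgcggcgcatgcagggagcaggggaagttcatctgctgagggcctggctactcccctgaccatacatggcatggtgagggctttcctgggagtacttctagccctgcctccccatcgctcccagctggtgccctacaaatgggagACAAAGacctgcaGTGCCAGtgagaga
Pllp: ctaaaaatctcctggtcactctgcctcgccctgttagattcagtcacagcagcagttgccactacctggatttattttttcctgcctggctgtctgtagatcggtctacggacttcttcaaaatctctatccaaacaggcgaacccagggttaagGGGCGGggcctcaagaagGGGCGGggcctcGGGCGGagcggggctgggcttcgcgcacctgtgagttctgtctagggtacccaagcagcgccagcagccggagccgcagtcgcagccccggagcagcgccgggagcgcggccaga
Qdpr: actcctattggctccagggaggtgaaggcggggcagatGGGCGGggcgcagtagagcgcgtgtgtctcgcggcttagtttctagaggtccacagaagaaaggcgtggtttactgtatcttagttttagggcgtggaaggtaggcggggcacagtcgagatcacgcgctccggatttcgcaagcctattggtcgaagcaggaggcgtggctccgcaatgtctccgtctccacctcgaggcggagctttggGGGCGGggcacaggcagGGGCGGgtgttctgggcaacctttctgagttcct
Mobp: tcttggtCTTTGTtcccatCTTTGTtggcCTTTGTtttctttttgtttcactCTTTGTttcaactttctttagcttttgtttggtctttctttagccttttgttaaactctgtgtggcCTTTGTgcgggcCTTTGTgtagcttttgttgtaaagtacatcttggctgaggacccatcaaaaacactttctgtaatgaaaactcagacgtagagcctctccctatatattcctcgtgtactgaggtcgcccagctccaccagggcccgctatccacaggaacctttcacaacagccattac

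The GC box, searched as GGGCGG, stood at 3 places in Pllp and at 3 in Qdpr, and it is present in 35.7% of 32851 promoters of the same length. Opalin held none of these. The core bound by SOX factors, searched as ACAAAG, stood at 2 places in Opalin and at 6 in Mobp, those of Mobp all on the opposite strand and before the start, and is present in 18.7% of promoters. A form of the motif of Myrf, searched as CTGGCAC, stood in Opalin on the opposite strand, starting 37 bases into the transcribed part, and is present in 5.01% of promoters. The TATA box, searched as TATAAA and present in 13.6% of promoters, was in none of those 7 genes. None of these 4 motifs was thus common to Opalin, Pllp and Qdpr, though Pllp and Qdpr shared GGGCGG and Opalin and Mobp shared ACAAAG. Cnp, Mog and Cryab, not shown, also passed as lower in both precipitates, and Cryab was not among those 7 genes. Cnp held ACAAAG at -167, CTGGCAC at -81 and GGGCGG on the opposite strand at -26 and -8, so it shared motifs with Opalin, Pllp and Qdpr. Mog held none of the 4. A match describes letters, not a site in use.

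The other genes of myelin and mature oligodendrocytes were taken from a list of 35, of which 34 were in the Lyve1 table and 32 were tested. In HA precipitates 12 passed as lower after LPS and 3 as higher, with a median log2 ratio of -0.50, and in IgG precipitates 12 as lower and 2 as higher, with a median of -0.40. Car2, a carbonic anhydrase, had log2 ratios of -1.45 ± 0.13 in HA (adjusted p = 1.92e-10) and -1.41 ± 0.13 in IgG (adjusted p = 7.68e-10). Gjb1, a gap junction protein, had -1.45 ± 0.22 in HA and -1.15 ± 0.24 in IgG. Ppp1r14a, an inhibitor of a protein phosphatase, had -1.50 ± 0.17 in HA and -1.23 ± 0.18 in IgG. Gamt, of creatine synthesis, had -1.10 ± 0.22 and -1.51 ± 0.23.

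Other genes of the list passed in 1 precipitate. Mag, the adhesion protein next to the axon, had a log2 ratio of -0.33 ± 0.15 in HA (adjusted p = 0.122) and -0.93 ± 0.15 in IgG (adjusted p = 2.69e-05). Of this list only Tmem88b passed the interaction, at -1.60 ± 0.44 (adjusted p = 0.0354), so a difference of Mag between precipitates is not shown. The genes that rose in HA were Hapln2, a matrix link protein of the node (1.29 ± 0.18), Anln (0.72 ± 0.24) and Myrf, the transcription factor of myelination (0.60 ± 0.18). In IgG Anln (0.97 ± 0.26) and Gsn (0.89 ± 0.27) rose.

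In a list of myelin lipid synthesis, 16 genes were tested, of which 3 fell and 1 rose in HA and 2 fell in IgG. Hmgcs1, an early enzyme of cholesterol synthesis, had log2 ratios of -1.03 ± 0.15 in HA and -1.01 ± 0.16 in IgG, and Fdps, a later enzyme of that route, -0.60 ± 0.15 and -0.73 ± 0.17. Gal3st1, which turns the product of Ugt8a into sulfatide, was lower in HA (-0.87 ± 0.23), and Cers2, which makes very long chain ceramides, was higher there (0.78 ± 0.21). Among 12 tested genes of oligodendrocyte precursors and committed precursors, 4 fell and 0 rose in HA, led by Gpr17, a receptor of committed precursors, at -1.49 ± 0.27. In IgG 3 fell, among them Gpr17 at -2.11 ± 0.31 and Cspg4 at -1.78 ± 0.25, and Pdgfra and Ptprz1 rose.

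**Figure D4:**
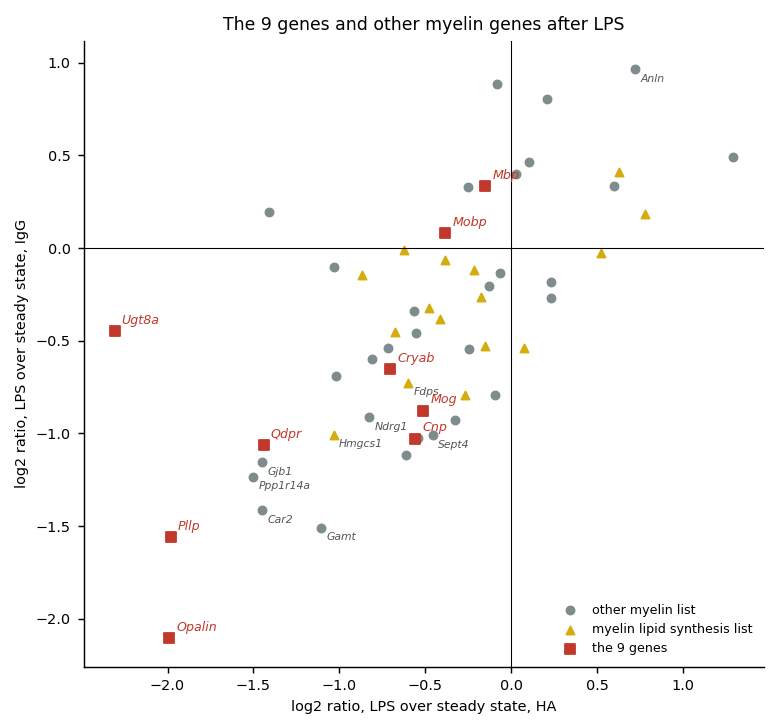
Log2 ratio of LPS over steady state in HA (horizontal axis) and IgG (vertical axis) for the 9 genes (squares), genes of the other myelin list (circles) and of the myelin lipid synthesis list (triangles), with names for the 9 and for the plotted list genes that passed in both. Opalin and Pllp lie with Car2, Ppp1r14a and Gjb1 at the lower left, and Mbp and Mobp lie above the horizontal axis.

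Markers of some other cell types differed with LPS too, and their part in these results was not tested. Of all tested genes, 9.46% passed as higher and 8% as lower in HA, and 6.92% and 6.44% in IgG. Of 12 tested astrocyte markers 4 rose in HA and 3 in IgG, and their summed CPM, over library totals, was 2906 to 3274 in LPS HA libraries against 1789 to 2140 at steady state, and 2408 to 2892 against 1692 to 1933 in IgG, with Gfap higher by 2.30 ± 0.20 in HA and 2.51 ± 0.20 in IgG (log2 ratio). Of 7 tested endothelial markers 4 rose and 1 fell in HA, 2 rose and 1 fell in IgG, and the sum over the 9 in the table was 899.7 to 1026 CPM against 718.5 to 868.1 in HA, and 503.6 to 661.4 against 366.2 to 631.8 in IgG. Of 16 neuronal markers 1 rose and 3 fell in HA and 1 rose in IgG, with sums of 7794 to 9112 CPM against 8960 to 9692 in HA and 10490 to 11270 against 9516 to 11380 in IgG. These neuronal sums overlapped in both precipitates. The sum of the 34 other myelin genes was 3309 to 3939 CPM against 4541 to 5604 in HA, and 4510 to 4988 against 4868 to 5610 in IgG. Of 12 tested microglial markers 4 rose in HA, where the sum over 15 was 1997 to 2512 CPM against 1004 to 1640, and 3 rose and 3 fell in IgG, where it was 805.9 to 1057 against 609.1 to 888.4. Of 8 fibroblast markers 4 rose in HA and 3 in IgG, with sums of 5261 to 6636 CPM against 3299 to 4220 in HA and 2731 to 3432 against 2109 to 2376 in IgG. Ptgds and Apod made up most of the HA sum. They averaged 4502 and 1085 CPM after LPS, against 3153 and 206.7 CPM at steady state. Which cells these transcripts came from was not tested. Among microglial markers P2ry12 was at 0 in every LPS IgG library. None of the astrocyte, endothelial or neuronal markers in the table was at 0 in any of these groups.

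The next question was whether HA precipitates differed from IgG precipitates of the same condition. After LPS 0 of the 9 genes passed (0 at an unadjusted p under 0.05, and 0 by DESeq2 and limma-voom), beside 9.62% of all tested genes. Mbp was at 2366 to 3281 CPM in HA and 3476 to 4358 CPM in IgG, groups that did not overlap, with a log2 ratio of -0.41 ± 0.26 (adjusted p = 0.352). Among all tested genes 7.22% had HA wholly below IgG. Ugt8a had -1.27 ± 0.64 (edgeR, unadjusted p = 0.0555, adjusted p = 0.217). Its 95% interval, -2.54 to -0.01, is a normal approximation that leaves out 0 although the test did not pass.

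In Lyve1 mice at steady state 2 genes passed as higher in HA and 0 as lower (edgeR, with 4 at an unadjusted p under 0.05), beside 11.7% and 14% of all tested genes. DESeq2 and limma-voom each called 3, the third being Cnp as lower. Mobp was at 211.2 to 330.2 CPM in HA, median 271.1, against 165.8 to 216.4 CPM, median 190.3, in IgG, with a log2 ratio of 0.49 ± 0.15 (adjusted p = 0.0136). Pllp was at 96.4 to 147.1 CPM, median 118.6, against 78.1 to 106.8 CPM, median 88.0 (log2 ratio 0.44 ± 0.16, adjusted p = 0.0375). Both pairs of groups overlapped, Mobp through HA library 2-2 and Pllp through the libraries 2-2 of HA and IgG. Pllp no longer passed when any of 6 single libraries was left out (HA 1-2 or 3-1, IgG 1-1, 1-2, 3-1 or 3-2), with adjusted p from 0.0514 to 0.0783. Cnp ran from 431.6 to 572.6 CPM in HA, wholly below the 581.4 to 747.0 CPM of IgG, as did 8.43% of all tested genes, and its log2 ratio of -0.32 ± 0.13 missed the threshold in edgeR (adjusted p = 0.0568) but passed in DESeq2 (adjusted p = 0.0454) and limma-voom (adjusted p = 0.0225).

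In the list of other myelin genes, 4 passed as higher and 7 as lower in steady-state Lyve1 HA than IgG, of 33 tested, beside 11.7% and 14% of all tested genes. Omg, Tmem88b, Ppp1r14a and Nkx6-2 were the higher ones, by 0.80 ± 0.25, 0.91 ± 0.28, 0.66 ± 0.16 and 0.45 ± 0.14, and Mag was the lower gene with the smallest p, at -0.86 ± 0.16 (adjusted p = 1.8e-04). Genes of this list were thus found on both sides of the comparison, as were tested genes in general.

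In Sall1 mice at steady state 0 of the 9 genes passed between HA and IgG (0 at an unadjusted p under 0.05, and 0 by DESeq2 and limma-voom), beside 9.8% of all tested genes. The log2 ratios ran from -0.64 ± 0.43 for Ugt8a to 0.28 ± 0.15 for Mobp. Mbp was nearly even, at 2481 to 3442 CPM in HA against 2082 to 3333 CPM in IgG (log2 ratio 0.03 ± 0.19, 95% interval -0.34 to 0.40). Of the 33 other myelin genes tested, 4 passed as lower in HA, among them Mag (-0.59 ± 0.16), Sept4 (-0.49 ± 0.13) and Ndrg1 (-0.42 ± 0.13), and 0 as higher.

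**Figure D5:**
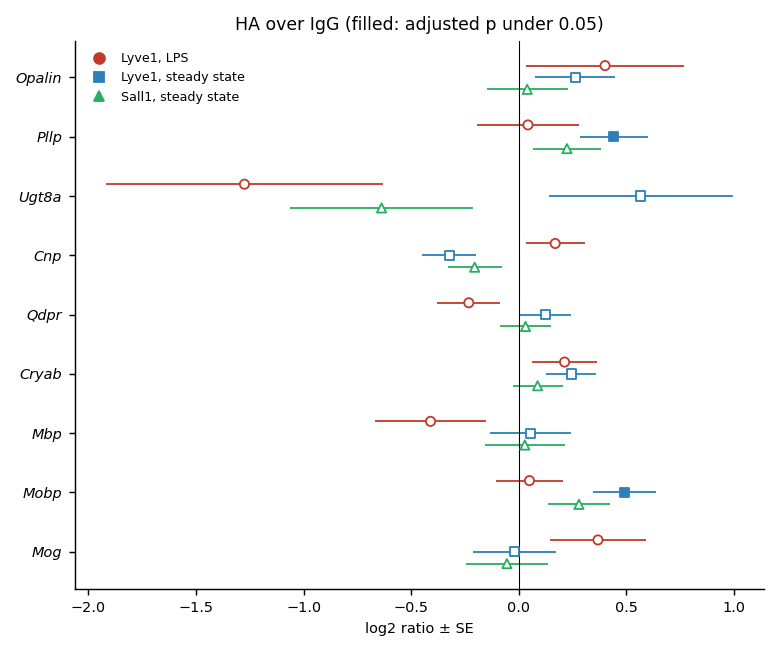
Log2 ratio of HA over IgG for each gene in Lyve1 mice after LPS (circles), Lyve1 mice at steady state (squares) and Sall1 mice at steady state (triangles), with bars of 1 SE and filled symbols where the adjusted p was under 0.05. Apart from Ugt8a, all estimates lie between -0.41 and 0.49, and only Mobp and Pllp in steady-state Lyve1 mice are filled.

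Between the lines at steady state, HA precipitates showed 0 of 9 genes past the threshold (edgeR, with 2 at an unadjusted p under 0.05, 1 by DESeq2 and 1 by limma-voom), beside 1.4% of all tested genes. Of all 9619 tested genes, 1501 had an unadjusted p under 0.05, and DESeq2 and limma-voom called 194 and 201 genes. The gene called by those other tools was Qdpr, at 296.2 to 393.7 CPM in Sall1 HA, median 331.6, against 386.3 to 503.6 CPM, median 455.4, in Lyve1 HA. Its log2 ratio, Sall1 over Lyve1, was -0.40 ± 0.12, with an adjusted p of 0.102 in edgeR, 0.0398 in DESeq2, 0.0222 in limma-voom and 0.0384 in edgeR without Sall1 HA library 1-2. Only 1 Sall1 library, 1-2, reached the Lyve1 range. With the Y-linked term in the fit of all libraries, Qdpr (-0.50 ± 0.14, adjusted p = 0.0142) and Ugt8a (-1.58 ± 0.50, adjusted p = 0.028) passed. That fit called 1762 of all 10168 tested genes in this comparison, against 144 without the term. Opalin had -0.40 ± 0.19, with a wide spread in Lyve1 HA, 32.6 to 67.0 CPM, against 30.3 to 46.3 CPM in Sall1 HA.

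IgG precipitates of the lines differed in none of the 9 genes and in 0% of all tested genes (edgeR, with 1 of the 9 and 644 of all genes at an unadjusted p under 0.05, 0 of the 9 by DESeq2 or limma-voom, and 14 and 0 of all genes by those tools). The ratio of HA to IgG did not differ detectably between the lines either, with 0 of 9 genes past the threshold by edgeR, DESeq2 and limma-voom, 0 at an unadjusted p under 0.05, and 0.218% of all genes. For Mbp the 95% interval of that difference was -0.55 to 0.49, and for Qdpr -0.42 to 0.24, on the log2 scale.

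Within groups the 9 genes did not form a block. Over 36 pairs of genes, the correlation of log2 CPM after removing group means had a median of 0.02 in the 24 steady-state libraries, from -0.47 for Ugt8a with Mog to 0.79 for Cnp with Mog. In the 20 Lyve1 libraries it had a median of -0.06, from -0.49 to 0.52. The points share depth and normalisation, so these are descriptions. Part of the steady-state pattern followed the Sall1 libraries with the first number 3, which hold no Y-linked counts. Mog was at 115.5 and 82.7 CPM in those 2 HA libraries against 40.4 to 65.4 CPM in the other 4, and Cnp was at 710.7 and 604.8 CPM against 418.9 to 571.9 CPM. Mbp ran the other way, at 2515 and 2481 CPM against 2772 to 3442 CPM.

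The genes most like the mean of the 9 were found by Pearson correlation of log2 CPM with that mean. Over 20 Lyve1 libraries, LPS included, they were Ppp1r14a (r = 0.92), Car2 (0.92), Nr4a3 (0.91), Cherp (0.90), Prmt2 (0.90), Egr1 (0.89), Vgf (0.89) and Pafah1b3 (0.89). Over 24 steady-state libraries they included Fdps (0.85), Rpl31 (0.85), Rps24 (0.84), Mrpl13 (0.84), Rpl35a (0.82), Gas5 (0.81) and Mrpl33 (0.80). No gene stood in both sets.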

How the data were processed

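The deposited files hold whole-number counts for each gene in each library. Beside these stand log2 fold changes and adjusted p-values of the authors, which the text does not print. The libraries are 3′ MARS-seq libraries of HA or IgG precipitates, per the labels' protocols. The submitters' processing notes name the mm9 build, while the aligner and counter are not given in the sources used here. Columns were assigned to groups by name, and 28 that match no sample were left aside. The Sall1 libraries after LPS were not analysed here. The genes and lists were chosen with earlier results of these data known.

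Genes were filtered within each table (filterByExpr, minimum count 10, minimum total 15), normalised by TMM, and tested by a robust quasi-likelihood fit over the table's 4 groups (edgeR 4.0.16, R 4.3.3). The filter kept 99.04% of counts. The 12 libraries held by both tables had 0 differing counts. Genes passed at a Benjamini-Hochberg adjusted p under 0.05 over all tested genes. The SE is the log2 ratio over the square root of F. The text names all 9 genes and, from each other list, up to 5 genes with the smallest adjusted p among those that passed. Any further list gene was picked with its values in view. The most similar genes are the 8 with the highest Pearson correlation. A few genes that these rules select are not reported here, though counts over a list include them. The fit was tested on simulated data. Alternatives were other scaling, no filter, DESeq2 1.42.0, limma-voom (limma 3.58.1), fits of single comparisons, a replicate block, and libraries summed or left out. Added after seeing the data were a fit of both tables, without and with a Y-linked term, and ratios to Mbp. CPM is from the Lyve1 table for comparisons with LPS and from the steady-state table otherwise.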

Additional observations from a re-analysis of the deposited data

Results flagged for a closer look

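In 2 of 54 sets of values of 1 gene in 1 group, a single library stood apart from the others, and chance alone gives about 1 in 20. Pllp was at 17.113 CPM in LPS IgG library 2-1 of Lyve1 mice, while the other 3 lay between 34.3 and 36.5 CPM, so that the gap made up 0.89 of the range. Ugt8a was at 22.688 CPM, from 20 counts, in steady-state Lyve1 IgG library 2-1, while the other 5 lay between 6.44 and 10.3 CPM and the gap made up 0.763 of the range.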

How the results depend on the processing

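Over the alternatives run, the calls of Opalin, Pllp and Qdpr as lower after LPS in HA and IgG, of Cryab in both and of Ugt8a in HA held under all of them, with log2 ratios of -2.23 to -1.63 and -2.46 to -1.75 for Opalin and -1.59 to -1.38 and -1.22 to -0.997 for Qdpr. Mog in HA kept its call under 5 of 21 alternatives. It lost it with the same sign under 15, each scaling alternative among them, and under the remaining 1, the Y-linked term, it lost it and turned to 0.25. Cnp in HA lost its call with that term alone. Mobp in HA passed under 5 of 21 alternatives, DESeq2 and limma-voom included.

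Members passing between HA and IgG in steady-state Lyve1 mice, 2 in the main analysis, numbered 1 without libraries under 0.5 of the median total, 1 without the filter, 0 with libraries that share a first number summed, and 1 to 2 with single libraries left out. The count was 3, with Cnp as lower, under 6 of 23 alternatives, namely DESeq2, limma-voom, library totals without TMM, only the groups compared, the replicate block and the Y-linked term (adjusted p of Cnp 0.0205 to 0.0454). After LPS that count of 0 became 1, Mbp, with the replicate block. Between the lines in HA, the count of 0 became 1 by DESeq2 and 1 by limma-voom, and was 0 to 1 with single libraries left out. It became 2 with the Y-linked term, in a fit that called 1762 of all 10168 tested genes. The cause was not tested. The replicate block, with the shared number as a term, moved Mog in HA after LPS (adjusted p = 0.0675) and Mobp (0.0327) across the threshold and made Cnp pass between HA and IgG in steady-state Lyve1 mice (0.0298). Same-numbered HA and IgG libraries deviated together with correlations of -0.0989 to 0.345, so the numbers were not taken to pair them, and in 7 of 16 cases the correlation was the highest, a hint from the data and not the design. Ugt8a, with under 10 counts in every LPS library, is limited by depth, and DESeq2 gave it no adjusted p in some comparisons. LPS cannot be told apart from the Y-linked counts within the Lyve1 libraries.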
